A study of Homo sapiens with 9 samples.

Results

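The 9 genes described here set how a cell senses, takes up and exports cholesterol: INSIG1, INSIG2, SCAP, SREBF2, SREBF1, STARD4, MYLIP, ABCA1 and ABCG1. They were chosen by name as genes of sterol sensing and of the control of SREBP transcription factors, together with genes of sterol uptake and export. The choice was made with earlier results of these data known, so shares of all genes beside their counts are a description. Every probe set that the platform annotation assigns to 1 of these symbols alone was used, 25 of 54675 probe sets in all, which gives 9 of 19775 measured genes. The cells were U937, a human lymphoma line with many features of monocytes. Cultures had been exposed to 44 °C or to 42 °C for 15 min and then left at 37 °C for 0, 1, 3 or 6 h, and untreated cells at 37 °C were the control. Each of the 8 heated conditions and the control was represented by 1 Affymetrix array, so no condition had a replicate, the spread between cultures is unknown, no test was run and no p-value is given. The control label carries no time, so heat and hours of culture cannot be told apart at 1, 3 and 6 h, and all cells came from the same line.

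SCAP escorts SREBP precursors, the products of SREBF1 and SREBF2, from the endoplasmic reticulum to the Golgi, where proteases release the part that acts as a transcription factor. When sterols are plentiful, INSIG1 and INSIG2 hold SCAP in the endoplasmic reticulum; when sterols are scarce, SREBPs enter the nucleus and switch on genes of cholesterol synthesis and uptake, INSIG1 and SREBF2 among them. Liver X receptors answer to oxidised sterols and drive the exporters ABCA1 and ABCG1, the ubiquitin ligase MYLIP, which marks lipoprotein receptors for degradation, and SREBF1. STARD4 moves cholesterol between membranes inside the cell and is itself a target of SREBPs.

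The promoter windows of 5 of the genes are shown because INSIG1, SREBF2, SREBF1 and STARD4 fell directly after heat while MYLIP rose later. Windows run 5′ to 3′ on the strand of the gene from 250 bases before to 50 bases after the start, from RefSeq on GRCh38.p14, which held windows for 8 of the 9 genes, all but ABCG1 (9 windows, since INSIG2 has 2). Capitals mark TCACNCCAC, a core of the sterol regulatory element, the E-box CACGTG, to which SREBPs also bind, and CCAAT, the box of NF-Y, a partner of SREBPs, on either strand.
SREBF2, chr22:41832855-41833154, plus strand: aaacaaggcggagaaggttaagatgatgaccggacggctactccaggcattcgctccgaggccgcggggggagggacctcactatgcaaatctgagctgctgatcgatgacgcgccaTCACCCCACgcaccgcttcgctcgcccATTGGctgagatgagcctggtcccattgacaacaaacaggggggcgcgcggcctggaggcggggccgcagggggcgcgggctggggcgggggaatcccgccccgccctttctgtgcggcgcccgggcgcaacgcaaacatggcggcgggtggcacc
INSIG1, chr7:155297628-155297927, plus strand: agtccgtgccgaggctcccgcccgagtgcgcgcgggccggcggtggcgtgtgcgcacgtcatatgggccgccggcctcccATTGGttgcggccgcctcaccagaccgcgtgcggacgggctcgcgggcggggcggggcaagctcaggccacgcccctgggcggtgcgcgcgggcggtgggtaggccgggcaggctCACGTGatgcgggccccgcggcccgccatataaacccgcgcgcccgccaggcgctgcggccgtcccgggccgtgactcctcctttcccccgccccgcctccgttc
SREBF1, chr17:17836937-17837236, minus strand: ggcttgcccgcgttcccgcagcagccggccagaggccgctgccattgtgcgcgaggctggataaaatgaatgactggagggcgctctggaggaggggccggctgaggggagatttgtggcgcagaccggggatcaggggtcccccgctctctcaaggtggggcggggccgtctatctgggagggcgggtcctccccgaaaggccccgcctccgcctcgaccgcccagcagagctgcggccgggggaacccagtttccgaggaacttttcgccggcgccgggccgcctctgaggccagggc
STARD4, chr5:111512486-111512785, minus strand: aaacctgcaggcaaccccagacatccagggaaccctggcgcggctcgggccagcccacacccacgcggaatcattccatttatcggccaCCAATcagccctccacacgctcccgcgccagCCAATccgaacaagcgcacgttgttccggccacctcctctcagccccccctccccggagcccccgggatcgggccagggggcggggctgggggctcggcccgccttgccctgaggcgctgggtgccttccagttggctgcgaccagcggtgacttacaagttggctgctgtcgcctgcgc
MYLIP, chr6:16128836-16129135, plus strand: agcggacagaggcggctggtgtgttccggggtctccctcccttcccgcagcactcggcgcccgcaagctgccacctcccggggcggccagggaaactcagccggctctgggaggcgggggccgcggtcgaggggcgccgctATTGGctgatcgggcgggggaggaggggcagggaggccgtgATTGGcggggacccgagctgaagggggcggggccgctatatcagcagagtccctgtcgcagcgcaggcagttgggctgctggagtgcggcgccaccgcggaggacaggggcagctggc

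The string TCACNCCAC was found in the SREBF2 window and in no other of the 9 windows, while 1.13% of all 35116 windows held it. CACGTG stood in the windows of INSIG1, SCAP and ABCA1, against 7.26% of all windows. CCAAT occurred in those of SREBF2, INSIG1, STARD4 and MYLIP, against 34.6% of all windows, so it was shared by genes that fell and a gene that rose. The SREBF1 window, 1 start of that gene and the only 1 searched, held none of these 3 motifs. GGGCGG, the GC box, was present in all 9 windows and in 45.0% of all windows. GAANNTTC, an inverted pair of heat shock units, was in none of the 9 and in 6.77% of all windows. The capitalised motifs did not overlap each other, GC boxes overlapped 1 another in the SREBF2 and INSIG1 windows, and a match is a string of letters, not a measured binding site. A missing match covers the exact string in these windows alone, not variants of it or sequence elsewhere.

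Signals are MAS5 values that were scaled here to a common trimmed mean of 100 per array, and a signal of 12.5, the median of all scaled values, served as a floor below which no difference was read. A gene is said to have risen or fallen when it differed by 2-fold or more (1 on the log2 scale), and where 1 of the signals was under the floor the fold is a lower bound, written "at least". Each gene is given by the probe set whose log2 signal, with the floor set, was highest on average, called its main probe set (for ABCA1 all sets tied at the floor). The arrays had trimmed means of 101 to 211 before scaling, 48.3 to 52.6% of probe sets lay above the floor, and the ratio of 3′ to 5′ control signals was 1.18 to 1.36 (ACTB) and 0.939 to 1.13 (GAPDH). Of 13 measured myeloid markers 10 were above the floor on all 9 arrays, ELANE, CTSG and LYZ among them, and CD14, FCGR1A and MPO were below it on all 9. Their summed signal was 11174 to 17759 on heated arrays and 14408 on the control array. Within that sum CEBPA fell past 2-fold on 4 heated arrays, to 574 at 3 h after 42 °C against 2122 in control cells, and PRTN3 rose to 1023 at 42 °C and 0 h against 481 in control cells. T cell markers summed to 29.2 to 69.1 on heated arrays and 53.5 on the control array, with CD3E, CD3G and CD8A below the floor throughout. B cell markers summed to 77.3 to 154 and 93.0, with PAX5 and CD79A above the floor on all arrays, and erythroid markers to 28.0 to 65.8 and 43.3, with KLF1 above it on all, HBB on 7 and ALAS2 on none. Markers of epithelium and fibroblasts summed to 26.2 to 314 on heated arrays and 30.2 on the control array, and COL1A1 accounted for 200.5 at 6 h after 44 °C and 268 at 6 h after 42 °C, against 8.37 in control cells, while EPCAM, KRT19, CDH1 and COL1A2 stayed below the floor. The part of these markers in the results was not tested.

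**Figure D1:**
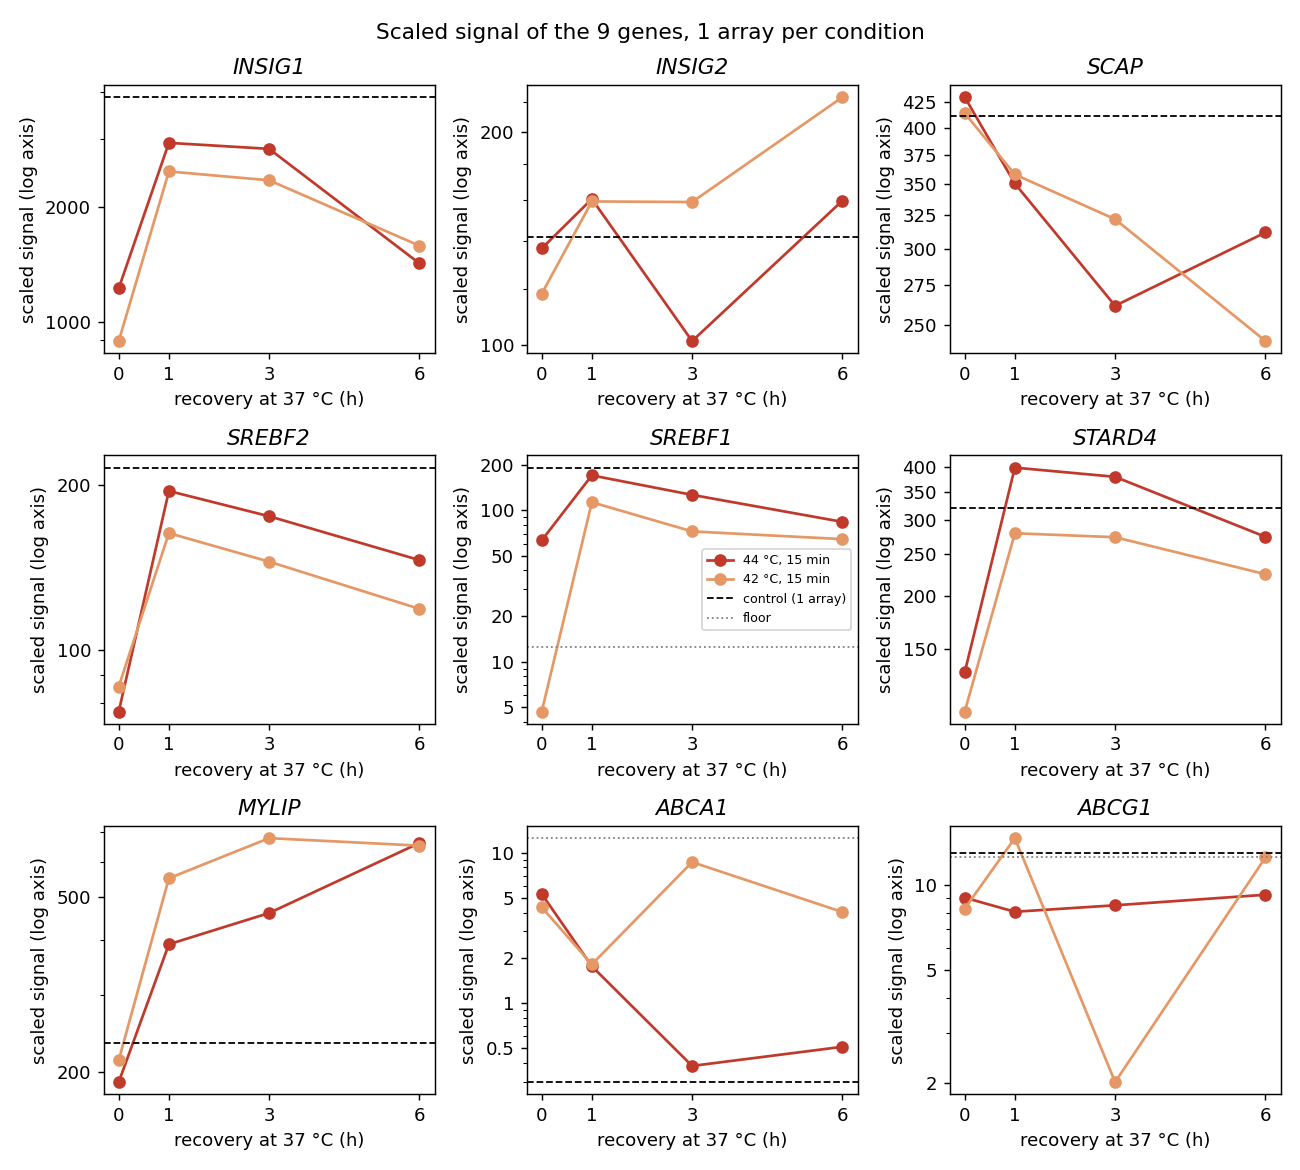
Scaled signal (log axis, a different range in each panel) of the main probe set of each of the 9 genes against hours at 37 °C after 15 min at 44 °C (red) or 42 °C (orange); the dashed line is the control array, the dotted line (shown for SREBF1, ABCA1 and ABCG1) the floor, and each point is 1 array. INSIG1, SREBF2, SREBF1 and STARD4 were lowest at 0 h, MYLIP was highest at 3 or 6 h, and ABCA1 lay below the floor on all 9 arrays.

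Directly after heat, 4 of the 9 genes had fallen at each temperature and none had risen. They were the same 4 genes both times: INSIG1, SREBF2, SREBF1 and STARD4. Over all genes, 1.03% fell and 0.855% rose at 44 °C and 0 h, and 2.41% fell and 0.93% rose at 42 °C and 0 h. Both comparisons use the same control array, so they are not independent. The median log2 fold of the 9 genes was -0.30 at 44 °C and -0.27 at 42 °C, against 0 for all genes in each. Genes at the floor on both arrays have a log2 fold of 0 and enter both that median and the shares of all genes. In bulk RNA of a culture, fewer cells that express a gene and less RNA per cell cannot be told apart.

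INSIG1, the anchor of SCAP that SREBPs themselves induce, fell at 0 h and again at 6 h at both temperatures. Its signals at 0, 1, 3 and 6 h were 1228, 2940, 2836 and 1425 after 44 °C and 895, 2476, 2348 and 1585 after 42 °C, against 3868 in control cells. All 8 heated arrays were below the control array. The log2 fold at 0 h was -1.66 at 44 °C and -2.11 at 42 °C, which ranked 26th and 12th from the lowest of 19775 genes. At 1 h it stood at -0.40 and -0.64 and at 3 h at -0.45 and -0.72, none past 2-fold, and at 6 h it had fallen again, to -1.44 and -1.29. The other probe sets, 201625_s_at and 201627_s_at, had -1.87 and -1.71 at 44 °C and 0 h and -1.94 and -1.92 at 42 °C and 0 h. They differed in size at 6 h, where 201625_s_at had -0.87 after 44 °C and -0.89 after 42 °C and did not pass 2-fold, while 201627_s_at had -1.20 and -1.29. The first hour of recovery therefore held a rise, of 2.39-fold after 44 °C and 2.77-fold after 42 °C relative to the 0 h arrays.

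INSIG2, its paralogue, which is not driven by SREBPs in the way INSIG1 is, did not share this course. Signals at 0, 1, 3 and 6 h were 137, 161, 101 and 160 after 44 °C and 118, 159, 159 and 224 after 42 °C, against 142 in control cells. Heated arrays lay on both sides of the control array, 5 above and 3 below, and log2 folds ran from -0.49 to 0.66. SCAP, the escort, also had no change of 2-fold. Its signals were 430, 350, 262 and 312 after 44 °C and 414, 358, 322 and 241 after 42 °C, against 412 in control cells. The 2 arrays at 0 h were the highest of the heated arrays and those at 3 h and 6 h the lowest, with log2 folds from -0.77 to 0.06. Each of these genes has 1 probe set, so no second set was at hand to compare.

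SREBF2, which encodes the SREBP of cholesterol synthesis, was lowest at 0 h. Its main probe set, 201247_at, read 77.0, 195, 175 and 146 at 0, 1, 3 and 6 h after 44 °C and 85.5, 163, 145 and 119 after 42 °C, against 215 in control cells. The 8 heated arrays were all below the control array, and the log2 folds at 0 h, -1.48 at 44 °C and -1.33 at 42 °C, were the ones past 2-fold. Its other probe sets gave smaller values there: 201248_s_at had -0.60 and -0.27 and 242748_at had -0.83 and -0.39. The size of the fall thus depends on the probe set, and the median over the 3 sets did not pass 2-fold at either temperature (-0.83 at 44 °C and -0.39 at 42 °C). All 3 sets were below the control array at 0 h.

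SREBF1, which encodes the SREBP of fatty acid synthesis and is also a liver X receptor target, fell on 5 of the 8 heated arrays. Probe set 202308_at read 63.2, 170, 126 and 83.6 at 0, 1, 3 and 6 h after 44 °C and 4.68, 113, 72.4 and 64.3 after 42 °C, against 191 in control cells. The value at 42 °C and 0 h stands apart from all others and is the only 1 of the 9 under the floor. There SREBF1 was at least 15.2-fold lower than in control cells (a bound of -3.93 in log2), while at 44 °C and 0 h it was 3.02-fold lower. At 1 h the log2 folds were -0.17 and -0.76, and at 3 h -0.60 and -1.40, so that the fall at 3 h passed 2-fold after 42 °C and not after 44 °C. At 6 h they were -1.19 after 44 °C and -1.57 after 42 °C. A second probe set, 1558875_at, read 1.82 to 9.21 and was below the floor on all 9 arrays, so that it gives no fold, and the median over both sets left the fall at 42 °C and 0 h alone past 2-fold.

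STARD4, the cholesterol carrier, fell at 0 h alone. Its signals at 0, 1, 3 and 6 h were 132, 399, 380 and 275 after 44 °C and 107, 280, 274 and 225 after 42 °C, against 322 in control cells. The 2 arrays at 0 h were the lowest, and those at 1 and 3 h after 44 °C lay above the control array. The log2 fold was -1.28 at 44 °C and -1.59 at 42 °C at 0 h, and from -0.52 to 0.31 at later times. Relative to the 0 h arrays it rose 3.01-fold by 1 h after 44 °C and 2.61-fold after 42 °C.

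**Figure D2:**
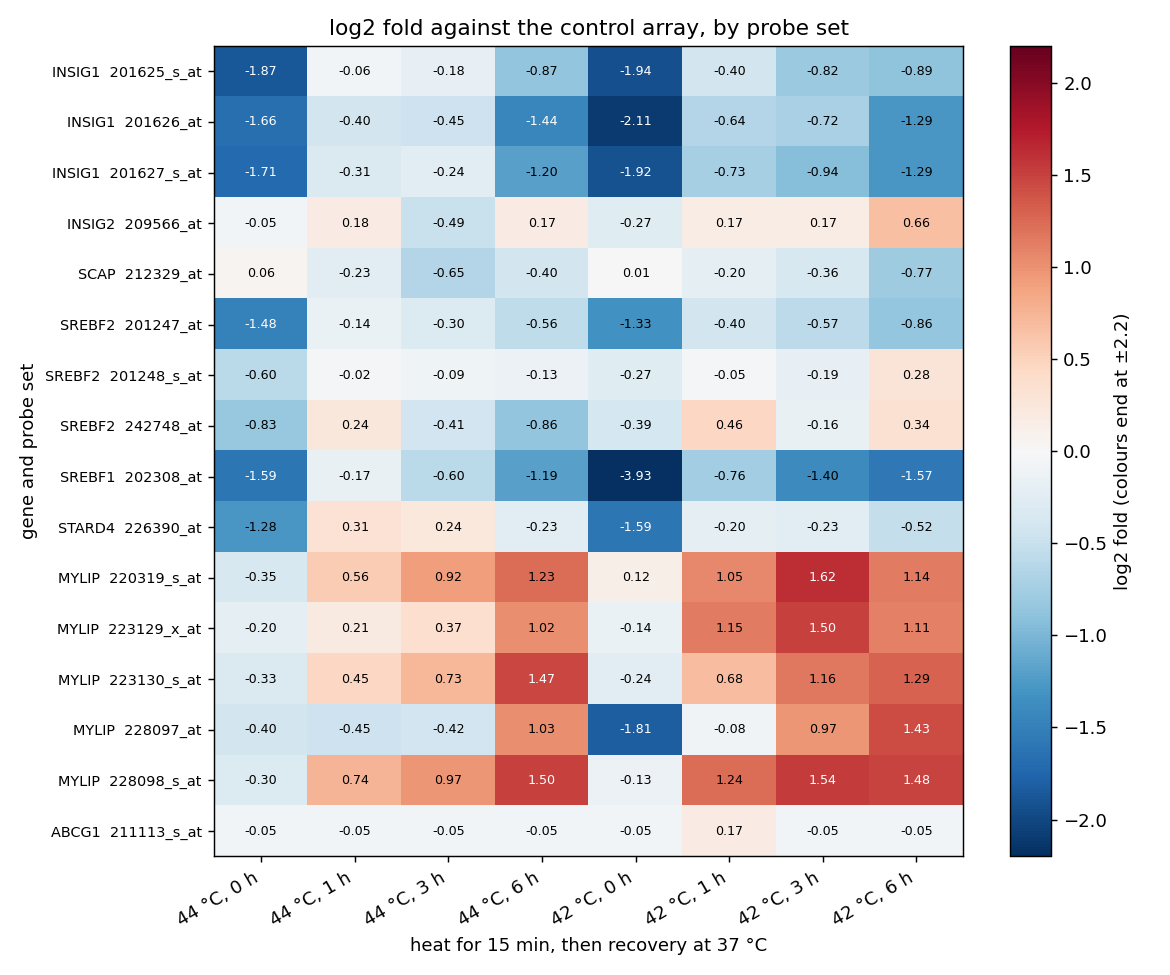
Log2 fold of each heated array against the control array (columns, 44 °C on the left and 42 °C on the right) for the 16 probe sets of the 9 genes that exceeded the floor on at least 1 array (rows); blue is lower and red higher than the control array, and colours end at 2.2 in size. The 3 INSIG1 sets and the SREBF1 and STARD4 sets were low at 0 h, the SREBF2 sets differed in size, and MYLIP sets were high at 6 h; ABCG1 values rest on the floor.

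In the first hour at 37 °C the genes that had fallen came back toward the control. The fall at 0 h and the rise from 0 h to 1 h use the same 0 h array. A low reading on that array would add to both, so fall and rise are not independent. Against the 0 h array of the same temperature, 5 of the 9 genes rose by 1 h after 44 °C (1.47% of all genes did), and none fell (0.814% of all genes). After 42 °C, 4 rose (2.09% of all genes) and none fell (0.425%). INSIG1, SREBF1, STARD4 and MYLIP rose at both temperatures, and SREBF2 rose 2.53-fold after 44 °C and had a log2 fold of 0.93 after 42 °C. The rise of SREBF1 was 2.68-fold after 44 °C and at least 8.99-fold after 42 °C, where its 0 h value was under the floor. Against the control array, no gene of the 9 had risen or fallen at 1 h after 44 °C (0.925% and 0.455% of all genes), and at 1 h after 42 °C MYLIP had risen and none had fallen (1.9% and 1.53% of all genes).

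MYLIP was the gene of the 9 that rose against the control. Its main probe set, 228098_s_at, read 190, 390, 460 and 662 at 0, 1, 3 and 6 h after 44 °C and 213, 551, 679 and 653 after 42 °C, against 234 in control cells. The 2 arrays at 0 h were below the control array and the 6 later arrays above it. The log2 fold after 44 °C was 0.74 at 1 h and 0.97 at 3 h, under 2-fold, and MYLIP was 2.83-fold higher at 6 h. After 42 °C the log2 fold was 1.24, 1.54 and 1.48 at 1, 3 and 6 h, all past 2-fold, though the median over the 6 sets was under it at 1 h. At 6 h the other 4 sets above the floor ranged from 1.02 to 1.47 after 44 °C and from 1.11 to 1.43 after 42 °C, all past 2-fold on both arrays. Probe set 228097_at had -1.81 at 42 °C and 0 h where the others ran from -0.24 to 0.12, and -0.45 and -0.42 at 1 and 3 h after 44 °C where the others ran from 0.21 to 0.97. The signal of 228097_at at 42 °C and 0 h was 12.7, just above the floor of 12.5. The remaining set, 227707_at, was below the floor on all 9 arrays.

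ABCA1 and ABCG1, the exporters of cholesterol to lipoproteins, were at or near the floor whatever the treatment. The 4 ABCA1 probe sets read 0.30 to 9.75 over the 9 arrays, all below the floor. Of the 4 ABCG1 sets, 211113_s_at read 14.7 at 1 h after 42 °C and 13.0 on the control array, just above the floor, and the other 3 sets never exceeded 9.16. No rise of these liver X receptor targets was detectable at these signals, and a change below the floor could not have been seen. Their fold is therefore no measure of stability.

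At 3 h, none of the 9 genes had risen or fallen after 44 °C (1.16% and 1.41% of all genes), whereas after 42 °C MYLIP had risen and SREBF1 had fallen (1.98% and 3.08% of all genes). At 6 h each temperature had the same count, with MYLIP risen and INSIG1 and SREBF1 fallen. Over all genes 2.51% rose and 2.64% fell at 6 h after 44 °C, and 2.59% rose and 2.38% fell at 6 h after 42 °C. Over the 8 heated arrays together there were 13 falls and 4 rises, all rises being those of MYLIP. Shares over all genes were counted for each array against the control and not over the 8 together. INSIG1 fell on 4 arrays, SREBF1 on 5, SREBF2 on 2 and STARD4 on 2. Against the 1 h arrays, INSIG1 at 6 h was 2.06-fold lower after 44 °C and 1.56-fold lower after 42 °C, SREBF1 2.03-fold and 1.75-fold lower, and STARD4 1.45-fold and 1.25-fold lower.

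Between the temperatures, 1 of the 9 genes passed 2-fold, at 1 of the 4 times. At 0 h SREBF1 was higher at 44 °C than at 42 °C by at least 5.04-fold, the only 1 of the 9 to pass 2-fold, and none was lower (1.59% and 0.753% of all genes). That call rests on the low value at 42 °C and 0 h. None of the 9 passed 2-fold in either direction at 1 h (1.01% of all genes higher and 1.27% lower), at 3 h (1.02% and 0.976%) or at 6 h (0.85% and 1.37%). The differences at 3 h ran from -0.65 for INSIG2 to 0.80 for SREBF1, and MYLIP had -0.56. Among probe sets that do not set the gene value, 4 values of 3 sets passed 2-fold: MYLIP 228097_at was 2.65-fold higher at 44 °C at 0 h, SREBF2 242748_at was lower at 6 h (-1.20 in log2), and 2 sets of MYLIP were lower at 3 h, 223129_x_at (-1.13) and 228097_at (-1.39). The value of 228097_at at 0 h rests on a signal of 12.7 at 42 °C, just above the floor. STARD4 differed by 0.29 to 0.51 and SREBF1 by 0.38 to 0.80 at 1, 3 and 6 h, all higher at 44 °C than at 42 °C and under 2-fold. For SREBF2 the direction turned with the probe set: 201247_at had 0.26, 0.28 and 0.30 at 1, 3 and 6 h, 201248_s_at had 0.03, 0.10 and -0.41, and 242748_at had -0.22, -0.26 and -1.20.

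Other genes of the pathway were counted from lists, on the same arrays and against the same control. The lists too were chosen with earlier results of these data known. Where another probe set is given below with 0 in log2, it lay at or under the floor on both arrays. Such a set gives no fold and neither repeats nor contradicts the main set. Of 16 measured enzymes of cholesterol synthesis, 3 fell at 44 °C and 0 h (1.03% of all genes did) and 4 at 42 °C and 0 h (2.41% of all genes), and none rose. HMGCS1, which makes the precursor of mevalonate, fell 2.30-fold and 3.44-fold, although its second probe set had -0.87 in log2 at 42 °C, under 2-fold. MVD, a later mevalonate enzyme, fell 2.37-fold and 2.44-fold. MSMO1, a sterol demethylase, fell 3.04-fold at 44 °C, with a log2 fold of -0.87 at 42 °C. LSS, which forms the sterol ring, fell 2.12-fold at 42 °C, with -1.11 and -0.23 in log2 for its other probe sets, and HSD17B7, a sterol reductase, at least 2.24-fold. The list median was -0.63 at 44 °C and -0.74 at 42 °C. At 1 and 3 h none of the 16 rose or fell at either temperature. Over all genes at 1 h, 0.925% rose and 0.455% fell after 44 °C, and 1.9% rose and 1.53% fell after 42 °C. At 3 h those shares were 1.16% and 1.41% after 44 °C and 1.98% and 3.08% after 42 °C. At 6 h 2.64% of all genes fell after 44 °C and 2.38% after 42 °C. Of the 16, LSS alone fell then, 2.38-fold after 44 °C and 2.44-fold after 42 °C. Its other probe sets were close to 2-fold lower at 6 h after 44 °C and had -1.09 and -0.51 in log2 after 42 °C. The list median there was -0.26 after 44 °C and -0.12 after 42 °C, beside -0.23 and -0.52 for the 9 genes.

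Of 18 measured genes that activate SREBPs or turn INSIG over, 1 fell at 44 °C and 0 h (1.03% of all genes did) and 2 at 42 °C and 0 h (2.41%). At later times 1 fell at 1 h after 42 °C (1.53% of all genes) and 1 rose at 6 h after 44 °C (2.51%). RNF145, a ligase that acts on SCAP, fell 2.16-fold at 44 °C and 2.23-fold at 42 °C at 0 h, where its other probe sets had -1.04 and 0 in log2 at 44 °C and -1.45 and 0 at 42 °C. RNF139, an ER ligase linked to INSIG1, fell 3.00-fold at 0 h and 2.08-fold at 1 h after 42 °C and had a log2 fold of -0.40 at 44 °C and 0 h. PAQR3, a Golgi anchor of SCAP, rose 2.29-fold at 6 h after 44 °C, though another probe set had 0.12. The proteases that release SREBPs, named after their values were seen, did not pass 2-fold, with log2 folds for MBTPS1 from -0.86 to -0.13 and MBTPS2 from -0.66 to 0.33.

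Of 8 measured genes of uptake and lysosomal export, 1 fell at 44 °C and 0 h (1.03% of all genes did) and 2 at 42 °C and 0 h (2.41%). NPC1, which exports cholesterol from lysosomes, fell on 5 heated arrays. It fell at 0 h by 3.36-fold at 44 °C and 3.31-fold at 42 °C. Over all genes, 1.41% and 2.64% fell at 3 and 6 h after 44 °C, and 2.38% at 6 h after 42 °C. NPC1 fell again at 3 and 6 h after 44 °C (2.32-fold and 2.31-fold) and at 6 h after 42 °C (2.09-fold). Its other probe sets ran from -2.97 to 0 in log2 at 42 °C and 0 h and from -0.24 to 0 at 6 h after 42 °C, where none passed 2-fold. VLDLR, a lipoprotein receptor, fell 2.81-fold at 42 °C and 0 h with a log2 fold of -0.77 at 44 °C. The remaining 6 of the 8 measured genes of this list did not pass 2-fold on any heated array. LRP1 among them was below the floor on all arrays (0.97 to 9.16), so that a change of it could not have been seen.

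Among 11 measured genes of fatty acid synthesis, targets of the SREBF1 product, 1 fell at 0 h at each temperature, beside 1.03% of all genes at 44 °C and 2.41% at 42 °C. It was SCD, the stearoyl-CoA desaturase, at 44 °C (2.58-fold, and -0.99 in log2 at 42 °C), and FASN, the fatty acid synthase, at 42 °C (2.34-fold, and -0.15 in log2 at 44 °C). FASN also fell 2.23-fold at 6 h after 42 °C, when 2.38% of all genes fell. A second probe set of FASN was at or under the floor on the control array and at 42 °C and 0 h. It gives no fold at 0 h, and at 6 h after 42 °C it had at least 0.51 in log2. ACACB, an acetyl-CoA carboxylase, rose 2.04-fold at 1 h after 42 °C, when 1.9% of all genes rose, while its other 6 probe sets ran from 0 to 0.80 in log2, none past 2-fold. ACSS2, which makes acetyl-CoA from acetate, had log2 folds of -0.90 at 44 °C and -0.97 at 42 °C at 0 h. ELOVL6 and ME1 were below the floor on all arrays, so a fall could have been seen for 9 of the 11 genes.

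Of the 3 measured liver X receptors and partners, NR1H3, which encodes LXR alpha, fell 2.27-fold at 6 h after 44 °C, when 2.64% of all genes fell. The NR1H3 signal there was 13.0, just above the floor of 12.5, against 29.5 in control cells. At 6 h after 42 °C NR1H3 had -0.63 in log2. RXRA, the partner receptor, fell 2.08-fold at 3 h after 44 °C, with -0.15 in log2 for its other probe set, and 1.41% of all genes fell there. Among 9 other measured targets of these receptors, 3 fell at 44 °C and 0 h (1.03% of all genes did) and 2 at 42 °C and 0 h (2.41%). Those were NPC1 and SCD, which other lists hold too, and TMEM135, a peroxisomal protein, which fell 2.88-fold at 44 °C and 2.26-fold at 42 °C with 0 in log2 for its other probe set; SCD did not pass 2-fold at 42 °C. None of the 9 passed 2-fold upward on any heated array, while 0.855% to 2.59% of all genes rose on each. However, LPL was below the floor on all 9 arrays, and APOC1 was above it on 4 and APOE on 6. A rise of these could thus have gone unseen.

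Of 15 measured genes of sterol transport and storage none was called lower on any heated array. Over all genes, 0.455% to 3.08% fell on each heated array. GRAMD1C, CH25H, CYP27A1 and ABCG4 had control signals under the floor, so a fall of these could not have been seen. ABCA7 read 23.5 in control cells, too close to the floor for a fall to pass 2-fold. It was under the floor at 6 h after 44 °C (7.47), at least 1.87-fold lower. At 6 h after 44 °C 2 of the 15 rose (2.51% of all genes did), and 1 rose at 1 h after 42 °C (1.9%). STARD5, a relative of STARD4, rose 2.15-fold at 6 h after 44 °C, from a dim 25.4 in control cells to 54.4. It had log2 folds of 0.38 to 0.98 on the other heated arrays, where the brighter STARD4 ran from -1.59 to 0.31. CYP27A1, a sterol hydroxylase, rose at least 2.22-fold at 6 h after 44 °C and at least 2.19-fold at 1 h after 42 °C, with a control signal under the floor.

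**Figure D3:**
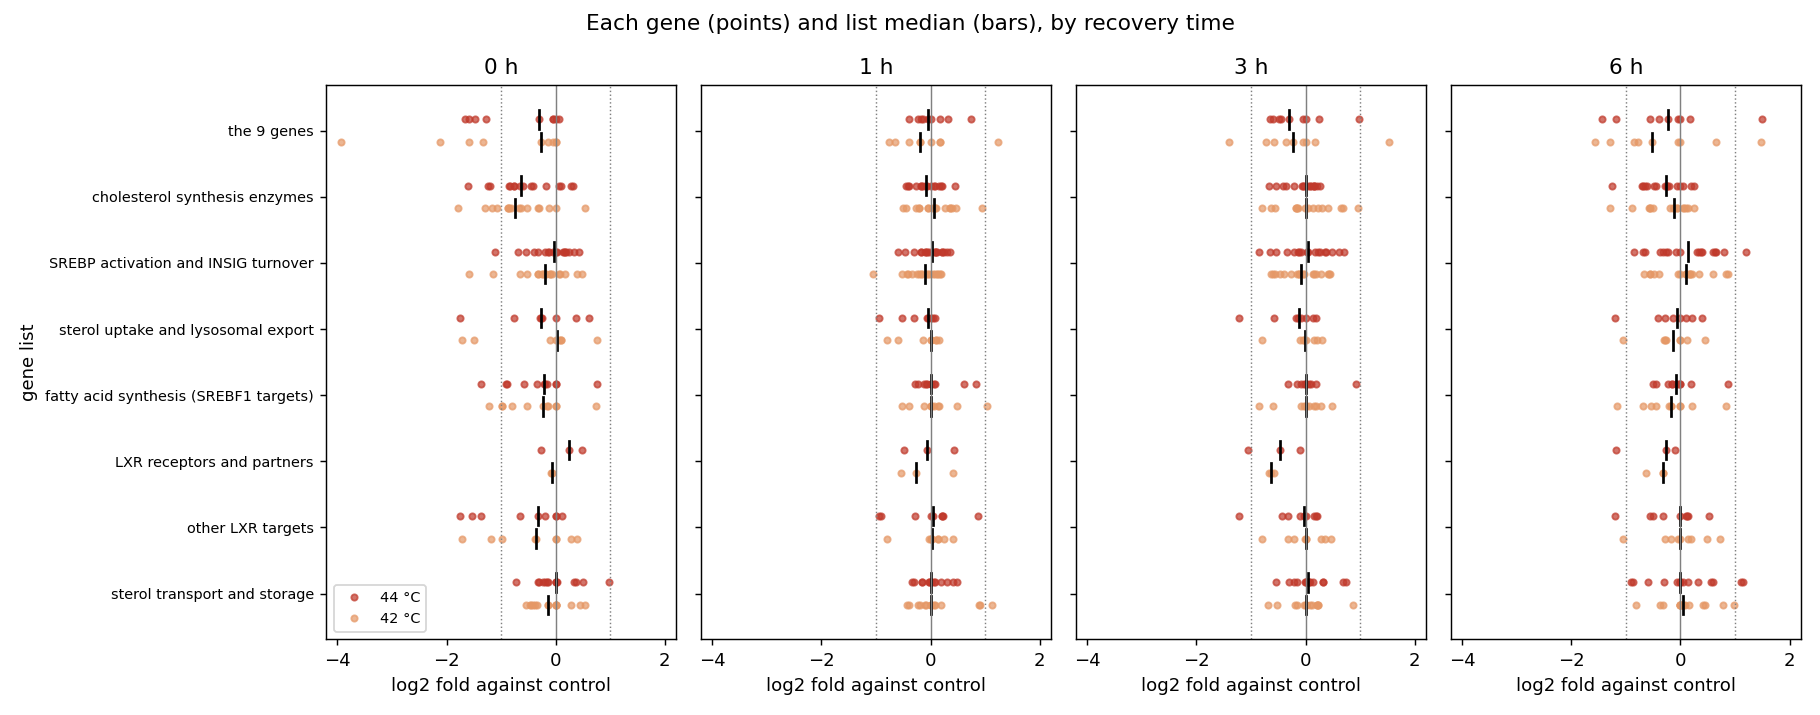
Log2 fold against the control array for each gene (points) of the 9 genes and of 7 lists of pathway genes, with list medians (black bars), at 44 °C (red, upper row of each list) and 42 °C (orange, lower row); panels are hours at 37 °C and dotted lines mark 2-fold. At 0 h, 4 of the 9 genes lay left of the 2-fold line at each temperature, and the list medians of the cholesterol synthesis enzymes were -0.63 at 44 °C and -0.74 at 42 °C.

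The courses of the genes over the 9 arrays were compared by Pearson's r of log2 signal, as a description of arrays that share a time course, among 3493 genes above the floor on all arrays that spanned at least 1 in log2. INSIG1, INSIG2, SREBF2, MYLIP and STARD4 met these conditions. INSIG1 was most like SLC6A6, a taurine transporter (r = 0.97), C11orf96 and LINC03040. SREBF2 was most like AFTPH-DT (0.96), STARD4 (0.94) and RAB11FIP1 (0.93), and STARD4 was most like ART3 (0.97), ACSS2 (0.96) and MOAP1 (0.96). MYLIP was most like CPEB2 (0.98), PHACTR1 (0.97) and SESN2, a stress-induced inhibitor of growth signalling (0.97). INSIG2 was most like ZFYVE21 (0.94), REL (0.91) and ITGB5 (0.91). Among the genes themselves, r was 0.92 for INSIG1 with SREBF2 and 0.88 for INSIG1 with STARD4. The 2 arrays at 0 h carry part of this likeness: over the other 7 arrays r was 0.88 and 0.70 for these pairs, 0.82 for SREBF2 with STARD4, and -0.85 for INSIG1 with MYLIP, which had 0.21 over all 9.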

How the data were processed

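Gene expression was measured in 9 samples of U937 cells, 8 heated and 1 control, by 3′ arrays (Human Genome U133 Plus 2.0). Groups came from the treatment labels. The deposited values, 1 for each probe set on each array, are intensity on a linear scale, which are MAS5 signals per the submitters' processing notes. The scaling target is not given in the sources used here. Scanner files were not analysed here. Using Python 3.11.15, numpy and pandas, each array was scaled to a trimmed mean of 100 (2% trimmed at each end, 62 control probe sets left out), raised to a floor at the median of scaled values, and put on a log2 scale. Scaling keeps differences in the shape of the distributions, and the floor understates folds of dim genes. A gene took the value of its probe set of highest mean log2 signal. All 9 symbols matched the RefSeq gene table by gene number.

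The heated arrays were compared with the control (8 comparisons), 44 °C against 42 °C at each time (4), and 1 h against 0 h at each temperature (2). The number of arrays limits precision. With 1 array per condition there was no test; the rule of size was 2-fold. The calling steps were tested on simulated data, with changes larger than 2-fold planted in bright genes. That check does not cover dim genes, folds near the rule or the spread between cultures. Named genes were the 9 genes, up to 4 members past 2-fold per list and comparison, NR1H3, and the 3 genes most like each of the 5 that were above the floor on all arrays and spanned 1 in log2. Some genes of the lists are not reported here. Scaling, floor, probe set rule, size rule and baseline were varied. The 9 genes and the lists were chosen with earlier results of these data known.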

Additional observations from a re-analysis of the deposited data

How the results depend on the processing

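The counts of the 9 genes over the 8 heated arrays, 13 falls and 4 rises, were 13 and 4 with quantile normalisation, with a floor at the 65th percentile (34.1) and with log2(signal + 16), 13 and 5 with a common median, and 14 and 5 with a floor at the 25th percentile (2.91). The median over the probe sets of each gene left 7 falls and 3 rises, since sets below the floor or with smaller folds entered for SREBF1, SREBF2 and MYLIP. A rule of 1.5-fold gave 20 falls and 7 rises. Shares over all genes were counted with the main settings alone, so the counts given here have no such share beside them. With the 0 h array of the same temperature as baseline for later arrays, 22 rises and 8 falls were counted, the 8 falls being those of the 0 h arrays against the control, and values at 1, 3 and 6 h turned to 1.26, 1.21 and 0.22 (44 °C) and 1.47, 1.39 and 0.83 (42 °C) for INSIG1. For SREBF1 they were 1.42 at 1 h and 0.40 at 6 h after 44 °C and 3.17, 2.53 and 2.36 after 42 °C. SREBF2 had 1.34 at 1 h and 1.19 at 3 h after 44 °C, and STARD4 had 1.05 at 6 h after 44 °C and 1.39, 1.36 and 1.07 after 42 °C. Between temperatures, calls were counted over genes and times together, and 1 was higher and 0 lower. The counts were 2 and 1 with the floor at the 25th percentile, where ABCA1 (lower) and ABCG1 (higher) at 3 h, below the main floor, entered. They were 0 and 0 at the 65th and 3 and 1 with 1.5-fold. The 3 were SREBF1 at 0, 1 and 3 h, and the 1 was INSIG2 at 3 h. Of the 18 calls of the 9 genes, 18 were called in the same direction with quantile normalisation, 17 under the 65th percentile floor and 11 with the median over probe sets. For the lists over the 8 heated arrays, quantile normalisation gave 1 rise of a cholesterol synthesis enzyme in place of 0. A floor at the 65th percentile gave 0 rises in place of 1 in fatty acid synthesis, 0 in place of 3 in sterol transport and 1 fall in place of 2 among liver X receptors and partners. No array could be left out, since each condition has 1. No paired analysis was possible because each group holds 1 array and the result comes from no test. The cause of these changes was not tested beyond what each setting alters. Signals below the floor, those of ABCA1 and ABCG1 above all, limit what could be seen.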
